A study of Mus musculus with 10 samples.

Results

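The distal convoluted tubule is the segment of the kidney tubule that follows the thick ascending limb, and 10 of its salt, magnesium and calcium genes were followed in kidneys of rilmenidine-treated and control mice. The genes were taken by symbol from the 43629 genes of the count table: Slc12a3, Wnk1, Wnk4, Stk39, Klhl3, Trpm6, Pvalb, Calb1, Trpv5 and Kcnj10. The mice were UM-HET3 males, a genetically heterogeneous stock bred from several inbred strains, and all were 4 months of age when the tissue was taken. The 4 treated mice had eaten a diet with 10 ppm rilmenidine, a drug against high blood pressure, for 1 month from 3 months of age, and the 6 control mice had eaten the same diet (Purina 5LG6) without it. Each mouse gave 1 kidney library, whose reads were counted per gene near the 3′ end of the transcript.

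In the distal convoluted tubule sodium and chloride enter the cell through the thiazide-sensitive cotransporter, the product of Slc12a3. The kinases WNK1 and WNK4 activate the kinase SPAK (Stk39), which phosphorylates and activates the cotransporter, and KLHL3 carries WNK kinases to a ubiquitin ligase for degradation. The same segment takes up magnesium through the channel TRPM6, and its late part takes up calcium through TRPV5. Parvalbumin (Pvalb) and calbindin (Calb1) bind calcium inside these cells, and the potassium channel subunit of Kcnj10 sets the voltage of their basolateral membrane. Mutations in several of these genes cause inherited disorders of blood pressure, potassium or magnesium.

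The genes for which the data gave the smallest p-values were Trpm6, Slc12a3, Wnk1 and Wnk4, and the 150 bases in front of their transcription starts are shown for that reason. They are read 5′ to 3′ on the strand of the gene from the RefSeq starts on GRCm38, and were cut where a GENCODE gene model begins earlier. Capitals mark TATAAA, the core of a TATA box, and GGGCGG, the core of a GC box, or its reverse complement. The stretches are chr8:94329051-94329200 (plus strand) for Slc12a3, chr6:120038673-120038822 (minus strand) for Wnk1, chr11:101260417-101260566 (plus strand) for Wnk4 and chr19:18749580-18749729 (plus strand) for Trpm6.
Slc12a3: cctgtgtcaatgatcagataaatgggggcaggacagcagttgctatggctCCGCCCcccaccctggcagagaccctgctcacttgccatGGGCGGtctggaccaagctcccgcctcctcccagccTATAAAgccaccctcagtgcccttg
Wnk1: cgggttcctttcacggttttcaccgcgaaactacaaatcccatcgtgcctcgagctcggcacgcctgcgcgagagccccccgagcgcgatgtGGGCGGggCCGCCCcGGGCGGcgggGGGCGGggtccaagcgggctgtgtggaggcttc
Wnk4: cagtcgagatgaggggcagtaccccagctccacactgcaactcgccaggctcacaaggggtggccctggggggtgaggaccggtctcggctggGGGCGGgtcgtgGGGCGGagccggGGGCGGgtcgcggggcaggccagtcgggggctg
Trpm6: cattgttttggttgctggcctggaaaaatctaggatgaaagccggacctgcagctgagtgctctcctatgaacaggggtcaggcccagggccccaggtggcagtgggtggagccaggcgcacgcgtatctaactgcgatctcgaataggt
The Slc12a3 stretch holds TATAAA and the letters of the GC box on both strands. The Wnk1 and Wnk4 stretches hold 4 and 3 GC box matches and no TATAAA, and the Trpm6 stretch holds neither. Their GC contents were 61.3%, 71.3%, 74.7% and 57.3%. Over the 250 bases before the start, 10 windows were found for 9 of the 10 genes (Pvalb has a pair, Calb1 was not matched). On either strand, TATAAA was in 2 of the 10 windows (Slc12a3 and Trpv5) and in 12.37% of all 32851 promoter windows, and GGGCGG in 5 (Slc12a3, Wnk1, Wnk4, Stk39 and Kcnj10) and in 32.74% of all. GTTAAT, bound by HNF1 factors, was in 0 of the 10 windows and in 6.43% of all, and TGTTCT, bound by steroid receptors, in 1 (Kcnj10) and in 16.08% of all. These are matches of letters and not measured sites.

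The libraries held 863605 to 2559118 counts in control kidneys and 1813465 to 3232063 in rilmenidine kidneys. Levels are given as normalized CPM, which are counts scaled to the library total (CPM) after RLE normalization. A gene was tested with edgeR's quasi-likelihood test where 7 or more of the 10 libraries held 6 or more of its reads, and p-values were adjusted by the Benjamini-Hochberg method over all 10055 genes that passed. A log2 fold change below 0 means a lower level with rilmenidine. Part of the extraction text in the labels speaks of liver, yet the liver transcripts Alb and Apoa1 did not exceed 20 and 4 counts in a library, while Fga had 25 to 133 and Ttr, which kidney also expresses, 443 to 2191. Malat1, a nuclear RNA, had 284 to 2100 normalized CPM in control and 306 to 393 in rilmenidine kidneys, and 4 of the 6 control kidneys had 1182 or more. Its log2 fold change was −1.73 (adjusted p = 0.211, unadjusted 0.000747, edgeR), with all 4 treated kidneys below the control median. A fit with Malat1 as a covariate therefore cannot fully separate Malat1 from the treatment. Library size, Malat1 and reads on olfactory and vomeronasal receptor genes (4.27 to 436 CPM) differed among libraries without being labelled as batches. For those of the 10 genes that were tested, fits with log2 library size or log2 Malat1 as a covariate stand beside the results. So do fits within the libraries that had at least 10 CPM on receptor genes, which select libraries and do not adjust for these reads. For the further genes and the markers these values are not given.

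No gene of the 10 differed between the groups at an adjusted p-value under 0.05. The count was 0 of 9 genes tested with edgeR's quasi-likelihood test, and 0% of all genes tested passed. It was also 0 with the edgeR likelihood ratio test and with DESeq2, which gave no adjusted value for Trpm6 and Trpv5. These tests called 44 and 60 of all 10055 genes. Klhl3 had too few reads to be tested. Before adjustment, 4 of 9 genes had a p-value under 0.05, namely Trpm6, Slc12a3, Wnk1 and Wnk4, and all of them had lower levels in rilmenidine kidneys. Over all genes tested, 10.6% had such a p-value in either direction and 6.13% had one with a lower level. All 9 genes had a log2 fold change below 0, as did 49.7% of all genes tested. The median log2 fold change was −0.34 for the 9 genes and 0.00 for all genes. In whole kidney, fewer distal tubule cells and less RNA per cell cannot be told apart. Reads of these genes that come from other kidney cells cannot be separated from those of this segment either.

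**Figure D1:**
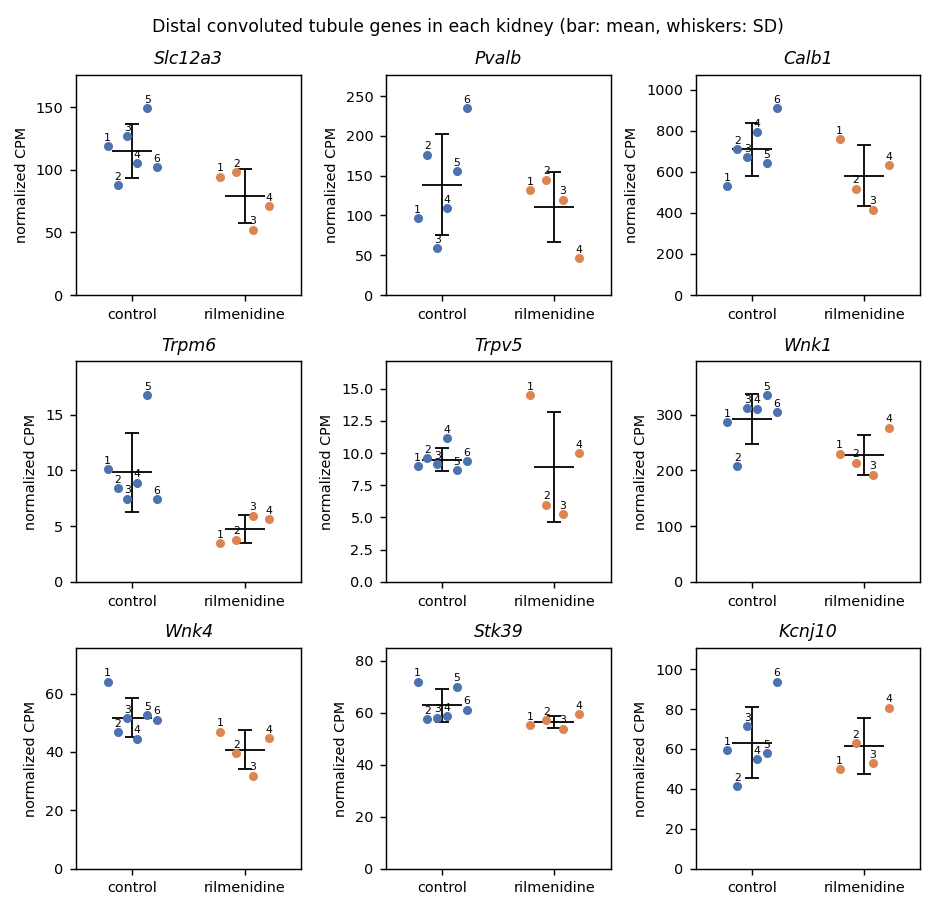
Normalized CPM (RLE-scaled CPM, axes from 0) of the 9 tested genes in each kidney, with points numbered by replicate, a bar for the mean and whiskers for the SD of 6 control and 4 rilmenidine kidneys. Trpm6 is the gene whose groups do not overlap, at 7.41 to 16.8 in control and 3.48 to 5.95 in rilmenidine kidneys.

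Slc12a3 (ENSMUSG00000031766; chromosome 8 of GRCm38, 94329201 to 94366214), the sodium chloride cotransporter, had 87.5 to 149 normalized CPM in control kidneys, with a median of 112. The levels in rilmenidine kidneys 1 to 4 were 94.5, 98.3, 52.1 and 70.9. All 4 treated kidneys lay below the control median and 2 of them, kidneys 3 and 4, below every control kidney, while the groups overlapped. The means were 115 ± 21.6 (SD, n = 6) and 79.0 ± 21.6 (SD, n = 4). This was a log2 fold change of −0.55 (standard error 0.19, 95% interval −0.95 to −0.16), with an adjusted p = 0.313 (unadjusted 0.00922) in edgeR. A two-sided exact permutation test of the log2 CPM gave p = 0.0333, where the smallest p that 210 divisions of the kidneys allow is 0.00476. The size of the difference moved with the covariates, to −0.29 with log2 Malat1, −0.32 with log2 library size and −0.29 within the 7 libraries (5 control, 2 rilmenidine) that had at least 10 CPM on receptor genes. In these 3 fits the unadjusted values in edgeR were 0.196, 0.147 and 0.185, so that Slc12a3 was no longer under 0.05. With any 1 kidney left out the log2 fold change was between −0.67 and −0.39. In all 10 of these fits p in edgeR was under 0.05 before adjustment. The exact test gave p of 0.0079 to 0.0952 over its 12 alternatives, of which 6 were under 0.05. Among these 6 were TMM normalization and a prior count of 0.5 in the log2 CPM, which kept all kidneys.

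Upstream of the cotransporter, the kinase gene Wnk1 (ENSMUSG00000045962; chromosome 6, 119923969 to 120038672) had 208 to 335 normalized CPM in control kidneys, with a median of 308, and 230, 214, 192 and 277 in rilmenidine kidneys 1 to 4. The groups overlapped because control kidney 2 was low, and 1 treated kidney lay below it. Wnk1 thus had a log2 fold change of −0.36 with a standard error of 0.15, with an adjusted p = 0.391 (unadjusted 0.0256) in edgeR. The exact permutation test of Wnk1 gave p = 0.0619, with 0.0079 to 0.143 over 12 alternatives, of which 2 were under 0.05. With log2 Malat1 as a covariate the log2 fold change was −0.19, with log2 library size −0.37 and within the 7 libraries with receptor gene reads −0.39, each with an unadjusted value above 0.05 in edgeR. The kidney-specific short form of WNK1, which lacks most of the kinase domain, shares the 3′ end of the gene with the full-length form, so these counts do not separate them.

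Wnk4 (ENSMUSG00000035112; chromosome 11, 101260567 to 101277409) had 44.6 to 64.0 normalized CPM in control kidneys, and the median was 51.3. The levels in rilmenidine kidneys 1 to 4 were 47.0, 39.6, 31.8 and 44.7. All 4 treated kidneys lay below the control median and 2 of them below every control kidney. Wnk4 was at −0.34 on the log2 scale, with a standard error of 0.15 and an adjusted p = 0.451 (unadjusted 0.0418) in edgeR, against unadjusted values of 0.0554 in DESeq2 and 0.0516 in the edgeR likelihood ratio test. The exact permutation test gave p = 0.0286, with 0.0238 to 0.0952 over 12 alternatives, of which 6 were under 0.05, and edgeR was under 0.05 before adjustment in 4 of the 10 fits without 1 kidney. Adjusting for log2 library size gave −0.22, for log2 Malat1 −0.27, and the 7 libraries gave −0.25. The unadjusted values in edgeR were 0.263, 0.166 and 0.253, so that Wnk4 was no longer under 0.05 in these fits. Without rilmenidine kidney 3, the lowest, the log2 fold change of Wnk4 was −0.23 (unadjusted 0.166, edgeR). Exons of Wnk4 share 306 bases with Gm11615 on the other strand, which had 0 to 4 counts per library.

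Stk39 (ENSMUSG00000027030; chromosome 2, 68210445 to 68472268) encodes the kinase SPAK. Its levels were 57.5 to 71.8 normalized CPM in control kidneys, with a median of 60.0, and 55.1, 57.0, 53.9 and 59.3 in rilmenidine kidneys 1 to 4. The treated kidneys were all below the control median, and 3 were below the lowest control kidney by a small margin. Stk39 had a log2 fold change of −0.15 (95% interval −0.42 to 0.12; adjusted p = 0.707, edgeR), or −0.06 with log2 Malat1, −0.12 with log2 library size and −0.17 within the 7 libraries. Klhl3 (ENSMUSG00000014164; chromosome 13, 58000228 to 58113592), the adaptor that takes WNK kinases to degradation, had 0 to 4 counts per library, 10 in all control and 9 in all rilmenidine kidneys. A difference in Klhl3 was not detectable at this depth.

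Trpm6 (ENSMUSG00000024727; chromosome 19, 18749983 to 18892511), the magnesium channel, had the largest log2 fold change of the 9 genes. Control kidneys had 7.41 to 16.8 normalized CPM, with a median of 8.65, and rilmenidine kidneys 1 to 4 had 3.48, 3.80, 5.95 and 5.62. The groups did not overlap, which was so for 1 of the 9 genes and for 1.67% of all genes tested. On the log2 scale the difference in Trpm6 was −1.01 (standard error 0.33, 95% interval −1.70 to −0.32), with an adjusted p = 0.296 (unadjusted 0.00682) in edgeR. The exact permutation test gave p = 0.00476, the smallest it can give. These levels rest on 6 to 29 counts per library. With log2 Malat1 as a covariate it was −0.61 and no longer under 0.05 before adjustment (0.133 in edgeR). With log2 library size it was −1.12, within the 7 libraries with receptor gene reads −1.50, and without control kidney 5, the highest, it was −0.77.

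Of the calcium genes, Calb1 (ENSMUSG00000028222; chromosome 4, 15881264 to 15908064), the calcium-binding protein calbindin, had 530 to 910 normalized CPM in control kidneys and a median of 692. Rilmenidine kidneys 1 to 4 had 758, 518, 415 and 631, so that 2 treated kidneys lay below every control kidney and 1 lay above the control median. Calb1 had a log2 fold change of −0.29 (95% interval −0.66 to 0.08; adjusted p = 0.588, edgeR). It was −0.45 without rilmenidine kidney 1, −0.16 without rilmenidine kidney 3, −0.47 with log2 Malat1, −0.40 with log2 library size and −0.07 within the 7 libraries with receptor gene reads. Trpv5 (ENSMUSG00000036899; chromosome 6, 41652173 to 41680769), the calcium channel, had 8.68 to 11.1 normalized CPM in control kidneys and a median of 9.24. The treated kidneys spread to both sides of that range, at 14.5, 5.97, 5.25 and 9.99. Its log2 fold change of −0.11 (95% interval −0.75 to 0.53) was above 0 without rilmenidine kidney 2 or 3, and its adjusted p was 0.940 (edgeR). It was −0.09 with log2 Malat1, 0.0090 with log2 library size and 0.098 within the 7 libraries.

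Pvalb (ENSMUSG00000005716; chromosome 15, 78191114 to 78206400) encodes parvalbumin, a calcium-binding protein of the early part of the segment. It had 58.9 to 235 normalized CPM in control kidneys, with a median of 132, and 132, 145, 120 and 46.5 in rilmenidine kidneys 1 to 4. The groups overlapped widely, and the lowest level of all was in rilmenidine kidney 4. Pvalb had a log2 fold change of −0.35 (95% interval −1.04 to 0.34; adjusted p = 0.751, edgeR). It was −0.09 without rilmenidine kidney 4, −0.13 without control kidney 6, −0.81 with log2 Malat1, −0.58 with log2 library size and 0.20 within the 7 libraries with receptor gene reads. Kcnj10 (ENSMUSG00000044708; chromosome 1, 172341210 to 172374085), the basolateral potassium channel subunit, had 41.3 to 93.6 normalized CPM in control kidneys and a median of 58.7. Rilmenidine kidneys 1 to 4 had 49.9, 63.0, 52.8 and 80.6, within the control range. Kcnj10 had a log2 fold change of −0.04 (95% interval −0.47 to 0.39; adjusted p = 0.972, edgeR), and it was above 0 without control kidney 6, rilmenidine kidney 1 or rilmenidine kidney 3. With log2 library size it was −0.26, with log2 Malat1 −0.17 and within the 7 libraries −0.0060.

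**Figure D2:**
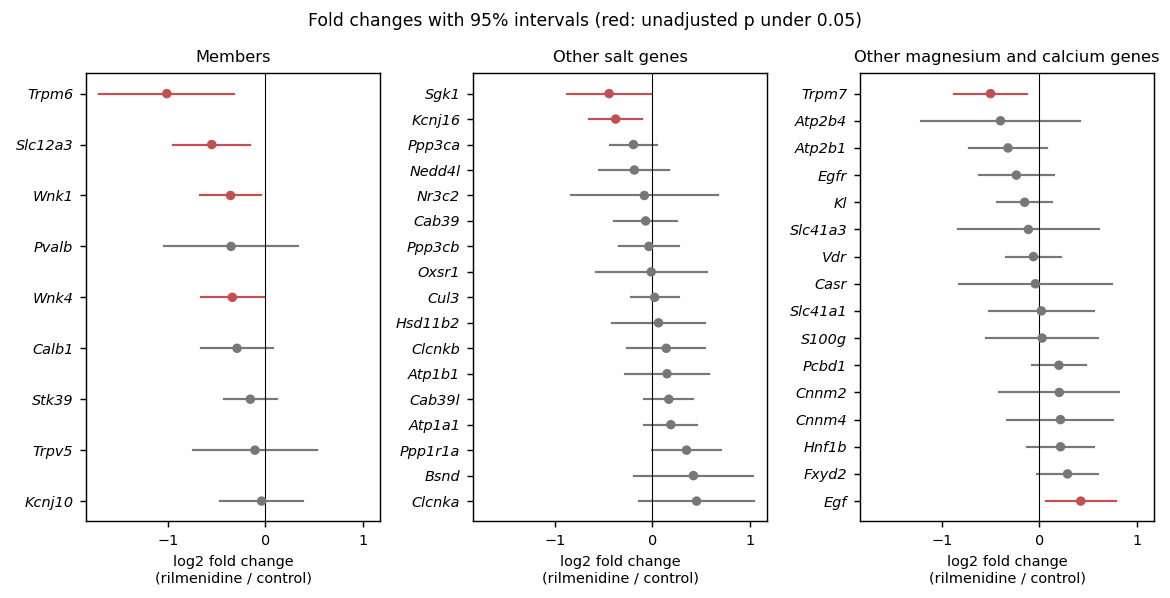
Log2 fold changes (rilmenidine over control) with 95% intervals from the edgeR quasi-likelihood fit for the 9 tested genes, 17 other salt genes and 16 other magnesium and calcium genes, with an unadjusted p-value under 0.05 in red. All 9 points of the first panel lie below 0, and the points of the other panels lie on both sides.

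The spread between kidneys of a group differed among the 9 genes. For Pvalb the coefficient of variation of normalized CPM was 45.6% in control kidneys, where counting error alone gave 8.30%. For Slc12a3 it was 18.8% against 7.91% and for Calb1 18.4% against 3.28%, so that for these genes animals or libraries differed by more than counting error. For Stk39 the values were 10.1% and 10.6%, both in control kidneys. For Trpv5 they were 9.21% and 27.5% in control kidneys but 47.7% and 23.9% in rilmenidine kidneys. For Trpm6 they were 36.0% and 27.8% in control kidneys and 26.6% and 32.6% in rilmenidine kidneys. Counting error takes each read as independent, and reads copied by amplification would make it larger.

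Across the 10 kidneys, of the 36 pairs of the 9 genes, 30 had a Pearson correlation of log2 CPM above 0, with a median r of 0.30. The highest was that of Slc12a3 and Wnk4, with r = 0.79 (permutation p = 0.00972, 0.0898 after Benjamini-Hochberg adjustment over the 36 pairs) and a Spearman rho of 0.73 (permutation p = 0.0208, adjusted 0.206). Without the 2 kidneys farthest from the median of Slc12a3, r was 0.54, and within the 6 control kidneys it was 0.45. Wnk4 and Stk39 had r = 0.79 (permutation p = 0.00567, adjusted 0.0898) and rho = 0.72 (permutation p = 0.0234, adjusted 0.206), with r = 0.56 without 2 kidneys. Calb1 and Trpv5 had r = 0.77 (permutation p = 0.00987, adjusted 0.0898) and rho = 0.75 (permutation p = 0.0168, adjusted 0.206), with r = 0.79 without 2 kidneys. In control kidneys alone, r was 0.81 for Wnk4 and Stk39 and 0.51 for Calb1 and Trpv5. Some other pairs changed sign there, for example Calb1 and Wnk4 (0.44 over 10 kidneys, −0.73 in control kidneys) and Trpv5 and Wnk4 (0.53 and −0.69). Over all 10 kidneys Pvalb had r of −0.23 to 0.25 with the others. The share of all gene pairs with r above 0 was not determined. None of the 36 pairs passed 0.05 after adjustment, and the kidneys share the difference between groups and the scaling of each library.

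**Figure D3:**
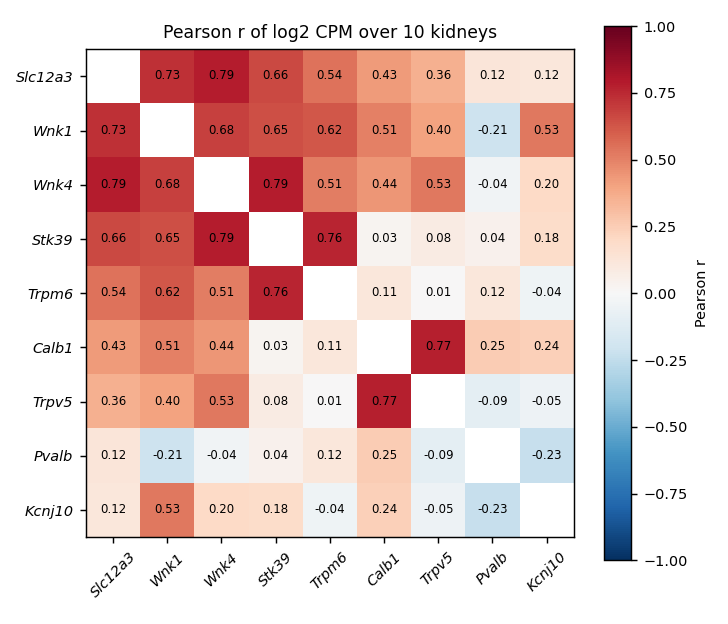
Pearson correlation r of log2 CPM over all 10 kidneys for each pair of the 9 tested genes, on a color scale from −1 (blue) to 1 (red). Slc12a3, Wnk1, Wnk4, Stk39 and Trpm6 have values of 0.51 to 0.79 with each other, Calb1 and Trpv5 have 0.77, and Pvalb has −0.23 to 0.25 with the rest.

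The genes whose log2 CPM was most like that of Slc12a3 over the 10 kidneys were Zc3h12c, Atxn2, Pax2, Vps13a and Gm17491. They were chosen as the highest of 10046 other genes, so their correlations are given without a test. Their Pearson correlations with Slc12a3 were 0.95, 0.92, 0.92, 0.90 and 0.90 and their Spearman correlations 0.94, 0.94, 0.76, 0.87 and 0.85. Within the 6 control kidneys r was 0.88, 0.83, 0.85, 0.98 and 0.73. Pax2 encodes a transcription factor of the developing nephron. The log2 fold changes of the 5 genes were −0.77, −0.43, −0.57, −0.62 and −1.63, with adjusted p of 0.274 to 0.672 (edgeR). The choice used all 10 kidneys with the group difference of Slc12a3 in them, so lower levels with rilmenidine follow in part from it.

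Other genes of salt transport in this segment lay on both sides of 0. Of 19 genes of WNK signaling, chloride and potassium channels, the sodium pump and the mineralocorticoid pathway, 17 were tested, 9 with a log2 fold change above 0 and 8 below, and the median was 0.02. After adjustment 0 had a p-value under 0.05 (edgeR), and before adjustment 2 had one, both with lower levels. Such an unadjusted p-value was found for 10.6% of all genes tested, and for 6.13% with a lower level. The product of Kcnj16 forms the basolateral potassium channel together with that of Kcnj10. Kcnj16 had 651 ± 90.2 (SD, n = 6) normalized CPM in control and 502 ± 27.8 (SD, n = 4) in rilmenidine kidneys. Its groups did not overlap, which was so for 1.67% of all genes tested. Kcnj16 was at −0.38 on the log2 scale (standard error 0.13; adjusted p = 0.313, edgeR). Sgk1, a kinase induced by aldosterone, was at −0.44 on the log2 scale (standard error 0.20; adjusted p = 0.456, edgeR), with all 4 treated kidneys within the control range. Ppp1r1a, an inhibitor of protein phosphatase abundant in this segment, had the next smallest p-value, with a log2 fold change of 0.35 (adjusted p = 0.480, edgeR).

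Among 18 other genes of magnesium and calcium handling, 16 were tested, 8 above and 8 below 0, with a median log2 fold change of −0.01. After adjustment 0 of them had a p-value under 0.05 (edgeR), and before it 2 had one, in opposite directions. The share of all genes tested with an unadjusted p-value under 0.05 was 10.6%. Trpm7, the channel related to TRPM6 that is expressed in most tissues, had 195 ± 51.2 (SD, n = 6) normalized CPM in control and 137 ± 6.55 (SD, n = 4) with rilmenidine, a log2 fold change of −0.50 (standard error 0.18; adjusted p = 0.336, edgeR). The treated kidneys, at 127 to 142, all lay within the control range of 120 to 254. Egf, which encodes the growth factor that stimulates TRPM6, had 215 ± 49.2 (SD, n = 6) and 288 ± 51.7 (SD, n = 4). All 4 treated kidneys lay above the control median of Egf, and its log2 fold change of 0.42 had a standard error of 0.17 (adjusted p = 0.385, edgeR). Fxyd2, a regulator of the sodium pump, followed with a log2 fold change of 0.29 (adjusted p = 0.512, edgeR).

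Of 3 further markers of the segment, Tmem52b had 444 ± 73.9 (SD, n = 6) and 439 ± 121 (SD, n = 4) normalized CPM, a log2 fold change of −0.02 (95% interval −0.37 to 0.34). Emx1 had a log2 fold change of 0.12 (95% interval −0.39 to 0.63). Sall3, with 5 to 26 counts per library, was at −0.90 (standard error 0.38; adjusted p = 0.422, edgeR). The levels of these 3 markers added up to 386 to 622 CPM in control and 365 to 667 in rilmenidine kidneys. For markers of neighboring cells, 4 of 4 tested thick ascending limb genes had a log2 fold change above 0, and the list summed to 1453 to 2125 CPM in control and 1749 to 2685 in rilmenidine kidneys. Principal cell markers summed to 123 to 166 and 177 to 202 CPM, with 3 of 4 above 0, and proximal tubule markers to 7175 to 8887 and 6974 to 8340, with 2 of 6 above 0. The ranges of control and rilmenidine kidneys were 211 to 312 and 168 to 353 CPM for intercalated cell, 63.1 to 109 and 66.2 to 101 for podocyte, 171 to 299 and 244 to 286 for endothelial, 40.7 to 182 and 97.4 to 113 for immune cell, 980 to 8803 and 2874 to 4115 for blood and 430 to 913 and 445 to 806 for liver markers. None of these markers had an adjusted p under 0.05 (edgeR), nor did any other gene tested. Before adjustment 1 thick ascending limb and 2 principal cell markers had a p under 0.05 (edgeR), all with higher levels. Sall3 had one with a lower level, and no other marker had one. For all genes tested the share with such a p was 10.6%, and 5056 of 10055 had a log2 fold change above 0. The part of these sums in the levels of the 9 genes was not tested.

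**Figure D4:**
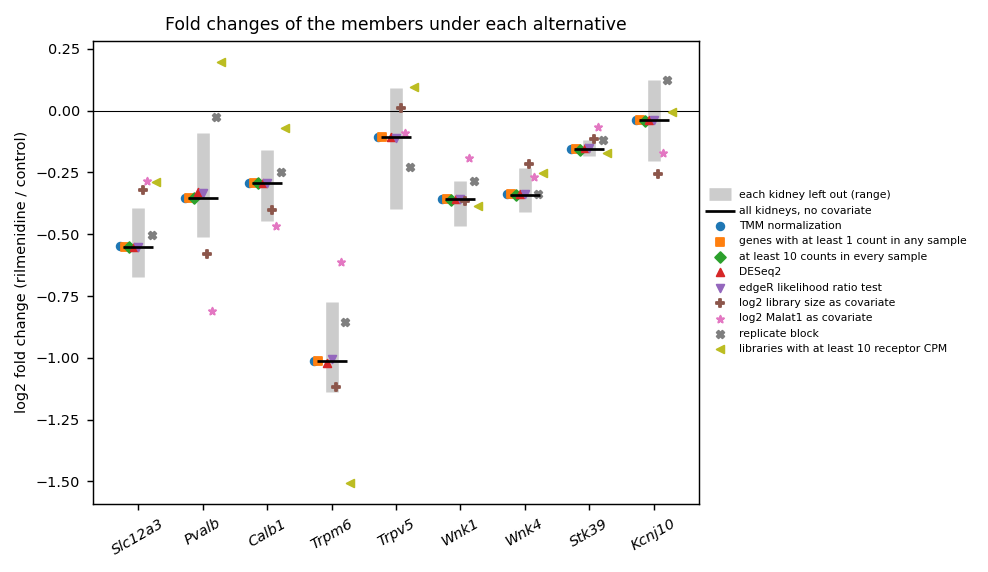
Log2 fold changes of the 9 tested genes with all kidneys (black bars), under 9 other settings (symbols) and over the fits that leave out 1 kidney each (gray ranges). Slc12a3, Calb1, Trpm6, Wnk1, Wnk4 and Stk39 lie below 0 throughout, while Pvalb, Trpv5 and Kcnj10 cross 0.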

How the data were processed

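The data are read counts of 10 kidney libraries, 6 control and 4 rilmenidine, grouped by their labels; the supplementary methods name 8 control kidneys. The authors deposited raw counts per Ensembl gene without normalization. Per the labels and methods, reads were trimmed with Trimmomatic 0.32, mapped to mm10 (STAR 2.5.2b), and assigned to genes by featureCounts 1.5. The annotation, the strand setting and the use of molecular identifiers are not given in the sources used here, so duplicate reads may be among the counts, and antisense reads may be among those of a gene.

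Genes were kept where 66.6% or more of the libraries held 6 or more reads, scaled by RLE and tested in edgeR 4.0.16 (R 4.3.3, quasi-likelihood test, no covariates), with Benjamini-Hochberg adjustment over all genes and a threshold of 0.05. The scripts were tested on simulated data. Standard errors are the fold change over the square root of F, and intervals are 95%. Log2 CPM for the exact permutation tests (two-sided, 210 divisions) used a prior count of 2. Correlations were tested with 100000 permutations. Counting error is the root mean of 1 over the count. Symbols and coordinates come from GENCODE M21 (GRCm38), in which 42548 of 43629 genes were found, and promoter sequences from RefSeq (GRCm38.p6).

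The genes, the lists of 19 and 18 further genes and the marker lists were chosen with earlier results of these data known. Named are the 10 genes, the genes of the further lists with an unadjusted p-value under 0.05 (at least 3 per list), the 5 most like Slc12a3, and Malat1. Alternatives were TMM, 2 other count filters, DESeq2 1.42.0, the edgeR likelihood ratio test, covariates of log2 library size or log2 Malat1, the replicate number as a block, the 7 libraries with at least 10 CPM on receptor genes, leaving out each kidney, and a prior count of 0.5. Replicates are separate mice by the series' design.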

Additional observations from a re-analysis of the deposited data

Results flagged for a closer look

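In 18 groups of kidneys (9 genes in 2 groups), 2 kidneys stood apart from the rest of their group by Dixon's test at 95%, which by chance flags about 1 in 20 groups. Trpm6 in control kidney 5 had 16.8 normalized CPM, where the next highest control kidney had 10.1 and the lowest 7.41. Without it the log2 fold change of Trpm6 was −0.77. Trpv5 in control kidney 4 had 11.1 normalized CPM against 9.59 in the next highest, a gap within counting error. Control kidney 5 was also the highest for Slc12a3, Wnk1 and Malat1, at 149, 335 and 2100 normalized CPM.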

How the results depend on the processing

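The count of genes with an adjusted p-value under 0.05 was 0 under all 19 alternatives in edgeR or DESeq2 among those of the 10 that had a value. With at least 10 counts in every library 7 were tested, without Trpm6 and Trpv5, for which DESeq2 also gave no adjusted value. The count with an unadjusted p-value under 0.05, 4 with all kidneys (10.6% of all genes), was 1 with log2 library size (4.3% of all genes), 2 with log2 Malat1 (Calb1 and Pvalb; 3.03%), 2 with the replicate number as a block (9.12%) and 1 within the 7 libraries with receptor gene reads (10.6%). With kidneys left out it was 2 to 5 (7.29% to 14.4% of all genes), with 2 without control 5, rilmenidine 2 or rilmenidine 3 and 5 without rilmenidine 1. For the further salt genes, 2 with all kidneys, it was 1 with log2 library size, 0 with the replicate block and 1 to 3 with kidneys left out. For the magnesium and calcium genes, also 2, it was 1 with log2 library size, 1 with log2 Malat1, 1 with the replicate block, 4 within the 7 libraries and 1 to 4 with kidneys left out. Causes were not tested.

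The log2 fold changes of Slc12a3, Calb1, Wnk1, Wnk4 and Stk39 stayed below 0 in 19 of 19 alternatives and that of Trpm6 in 18 of 18. That of Pvalb was 0.20 within the 7 libraries, and its log2 CPM difference ran from −0.52 to 0.062 with kidneys left out. That of Trpv5 was 0.0090 with log2 library size, 0.098 within the 7 libraries and −0.40 to 0.092 with kidneys left out (log2 CPM difference −0.41 to 0.020). That of Kcnj10 was 0.12 with the replicate block and −0.20 to 0.13 with kidneys left out (log2 CPM difference −0.15 to 0.10). Deviations of same-numbered kidneys correlated at −0.077 to 0.077 and 1 of 4 treated kidneys was closest to its own number. These few values do not settle whether the numbers pair the kidneys. With 6 to 29 counts per library for Trpm6, 8 to 32 for Trpv5 and 0 to 4 for Klhl3, depth limits these genes most.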
